A study of Mus musculus with 40 samples.

Results

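The 42 genes described here encode the aminoacyl-tRNA synthetases, the enzymes that load amino acids onto transfer RNAs, and a few proteins named after them. They were taken from 54532 genes in the expression table as every protein-coding gene whose description holds the words tRNA synthetase. Of these 42 genes, 21 encode cytosolic enzymes, 17 encode mitochondrial enzymes and 4 encode other proteins (Aimp1, Aimp2, Prorsd1 and Aarsd1). RNA was sequenced from the peripheral whole blood of 40 female mice aged 7 weeks, 1 library a mouse, after selection of polyadenylated RNA. The mice were labelled Ifnar1+/+ (27 mice) or Ifnar1-/- (13 mice), the latter lacking a subunit of the type I interferon receptor. They were given spermine, a polyamine, or PBS for 3 days and then pristane, a mineral-oil component used to induce lupus-like disease, and were bled at day 4 or day 6. The Ifnar1+/+ groups were uninduced (3 mice), PBS then pristane at day 4 and at day 6 (6 mice each), and spermine then pristane at day 4 and at day 6 (6 mice each). The Ifnar1-/- groups were uninduced (3 mice) and PBS then pristane at day 4 and at day 6 (5 mice each). The labels give no pretreatment for the uninduced mice, so the effects of PBS and pristane cannot be told apart in comparisons with them.

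A synthetase joins its own amino acid to the matching transfer RNA, and the ribosome relies on that pairing to read the genetic code. Cytosolic and mitochondrial translation mostly use separate synthetases, all encoded in the nucleus, and in mammals several cytosolic enzymes sit together in a multi-synthetase complex held by the scaffold proteins Aimp1, Aimp2 and Eef1e1. Many cytosolic synthetase genes are known targets of ATF4, the transcription factor of the integrated stress response, which also drives amino acid synthesis and uptake when translation initiation is restrained. Wars, the tryptophanyl enzyme, is in addition a known interferon-inducible gene. Maturing red cells translate globin on a large scale, and in them the heme-regulated kinase Eif2ak1 feeds the same stress pathway.

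Levels are given as FPKM, fragments per kilobase of gene model, scaled between libraries by the authors, so that genes of different length can be compared. Libraries held 9156431 to 14058050 fragments on genes. Hemoglobin genes took 26.5% to 62.2% of them, which left 3577936 to 9365306 others. The mitochondrial share of those others ran from 0.880% to 2.53%, and 7 libraries lay under 1.2%: Ifnar1+/+ uninduced mouse 3, PBS day 4 mice 1, 3 and 4, PBS day 6 mice 4 and 6, and spermine day 6 mouse 2. Markers of red cells, neutrophils, B cells, T cells and platelets were read in every library, apart from the neutrophil gene Camp in 1. The Ifnar1 gene itself was higher in the mice labelled Ifnar1-/- (13.7 to 23.9 FPKM) than in those labelled Ifnar1+/+ (5.85 to 10.3 FPKM), so a whole-gene value does not show the deletion and the genotype is used as labelled.

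Promoter windows show which of these genes carry short motifs tied to stress, interferon or mitochondrial programmes. RefSeq windows of build GRCm38.p6, from 250 bases before to 50 after the gene start, were matched for 32 of the 42 genes. On either strand the letters TGATGNAA, the core of a C/EBP-ATF site that ATF4 can use, were in 5 of the 32, Aars, Gars, Iars, Tars and Yars. All 5 are cytosolic, of 14 cytosolic genes matched, and all 5 are among the 8 matched genes listed as ATF4-linked. The motif was in 4.51% of all 27025 genes with a window. The letters GCATGCGC, the core of an NRF1 site, were in Rars2, Vars2 and Wars2, 3 of 14 mitochondrial genes and 0 of 14 cytosolic genes, beside 3.05% of all genes. The letters GAAANNGAA, the core of an interferon-stimulated response element, were in Aimp2 and Qars, beside 9.76% of all genes. A match is a description of the letters and not a shown binding site. Windows of 3 genes with the ATF4-type core and of Vars2 with the NRF1-type core follow, 5′ to 3′ along the gene's strand, with the motif in capitals, which reads as its reverse complement TTNCATCA in the first 3. Vars2 was chosen after the matches were seen. Genes with no window matched include Nars, Vars and Wars. The windows of Aars, Gars, Iars and Vars2 lie, in this order, at chr8:111033592-111033891 (plus strand), chr6:55037751-55038050 (plus strand), chr13:49681880-49682179 (plus strand) and chr17:35667543-35667842 (minus strand).
Aars: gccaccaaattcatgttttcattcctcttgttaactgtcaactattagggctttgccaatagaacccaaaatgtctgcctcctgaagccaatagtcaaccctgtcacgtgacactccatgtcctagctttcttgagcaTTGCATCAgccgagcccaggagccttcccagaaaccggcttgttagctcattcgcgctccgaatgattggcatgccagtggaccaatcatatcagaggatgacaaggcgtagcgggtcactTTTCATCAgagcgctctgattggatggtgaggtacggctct
Gars: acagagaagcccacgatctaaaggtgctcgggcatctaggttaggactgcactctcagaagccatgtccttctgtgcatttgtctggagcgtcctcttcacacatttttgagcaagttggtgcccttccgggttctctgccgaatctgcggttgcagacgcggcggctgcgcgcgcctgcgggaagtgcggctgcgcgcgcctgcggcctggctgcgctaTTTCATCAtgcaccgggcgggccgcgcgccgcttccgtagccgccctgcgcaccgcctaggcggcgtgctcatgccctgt
Iars: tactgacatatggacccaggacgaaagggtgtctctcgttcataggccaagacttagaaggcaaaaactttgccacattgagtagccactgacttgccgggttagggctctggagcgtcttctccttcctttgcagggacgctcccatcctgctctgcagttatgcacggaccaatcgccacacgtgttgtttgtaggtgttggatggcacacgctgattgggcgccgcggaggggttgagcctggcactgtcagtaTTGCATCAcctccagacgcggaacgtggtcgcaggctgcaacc
Vars2: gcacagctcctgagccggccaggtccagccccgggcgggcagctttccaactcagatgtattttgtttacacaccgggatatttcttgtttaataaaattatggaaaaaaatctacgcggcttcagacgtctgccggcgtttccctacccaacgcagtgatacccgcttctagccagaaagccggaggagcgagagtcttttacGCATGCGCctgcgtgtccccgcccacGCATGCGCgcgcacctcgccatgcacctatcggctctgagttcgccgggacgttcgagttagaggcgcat
In Aars, the alanyl enzyme, a first copy starts 112 bases before the gene start and a second 9 bases after it. In Gars, the glycyl enzyme, the motif starts 30 bases before the gene start, and in Iars, the isoleucyl enzyme, 7 bases after it. In Vars2, the mitochondrial valyl enzyme, the copies start 46 and 20 bases before it.

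The cytosolic genes were read at higher levels than the mitochondrial ones. The median over genes of the mean FPKM in 40 mice was 4.96 for 21 cytosolic genes and 1.17 for 17 mitochondrial genes. Vars, the cytosolic valyl enzyme, led with a mean of 22.4 FPKM (range 15.2 to 29.996), followed by Nars, the cytosolic asparaginyl enzyme, with 19.2 (11.5 to 51.0). The ranges of these leading genes overlap. Gars (7.61), Wars (7.54) and Sars, the seryl enzyme (7.51), came next, and their means differed by less than their ranges over mice. Vars and Nars together made up 20.6% to 38.5% of the summed FPKM of the 42 genes in a mouse. Of 16 pairs of a cytosolic and a mitochondrial gene for the same amino acid (Farsb standing for the phenylalanyl enzyme), the cytosolic gene had the higher mean in all 16. The ratio of means ran from 1.12 for Cars over Cars2, the cysteinyl enzymes, where 24 of 40 mice had the cytosolic gene higher, to 61.7 for Nars over Nars2.

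**Figure D1:**
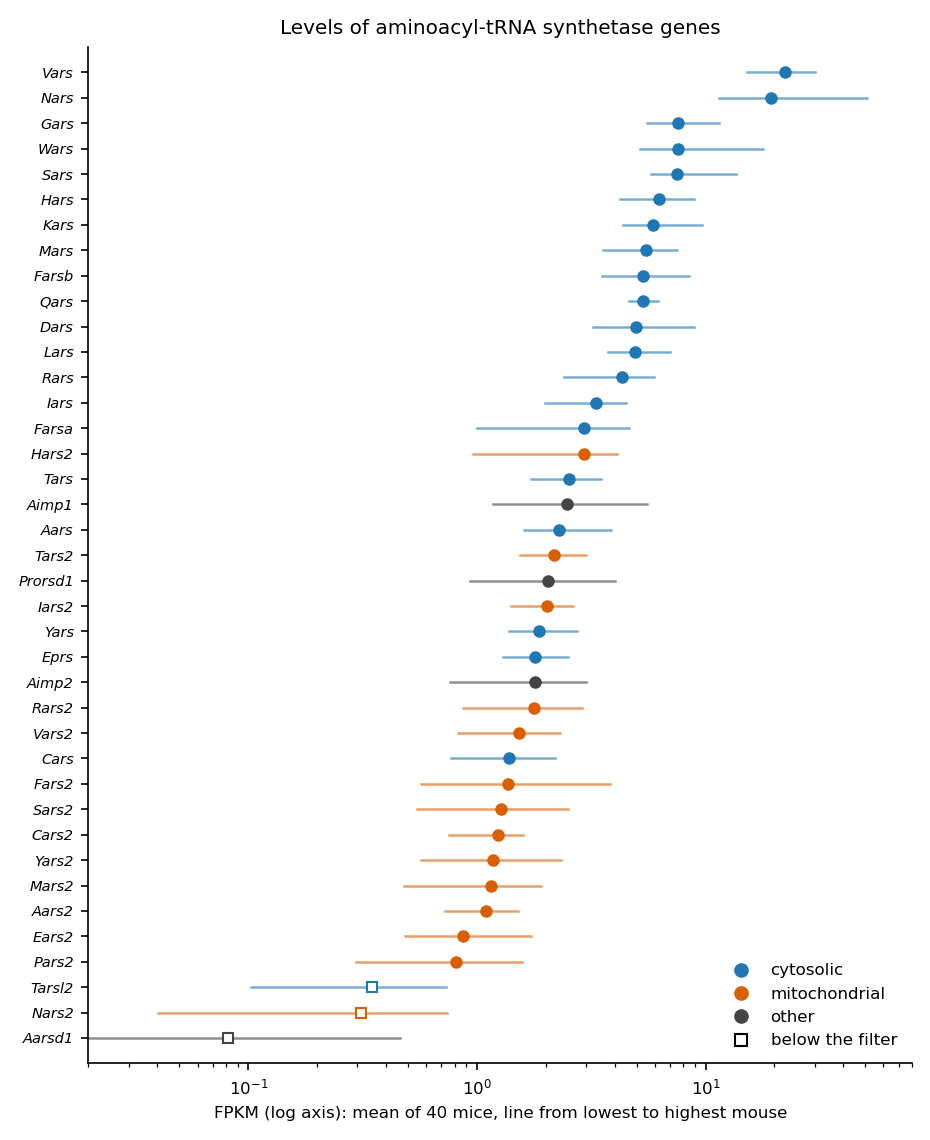
Mean FPKM of the 36 tested genes and the 3 lowest genes over 40 mice on a log axis (point), with a line from the lowest to the highest mouse; blue is cytosolic, orange mitochondrial, black other, and open squares are the 3 lowest, which did not reach 1 FPKM in 3 libraries. Vars (22.4) and Nars (19.2) stand to the right of all others, and most mitochondrial genes lie below the cytosolic ones; the line of Aarsd1 starts at the axis edge because its lowest value is 0.

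The lowest genes were Tarsl2, a second cytosolic threonyl enzyme, at 0.346 FPKM (0.103 to 0.730), Nars2, the mitochondrial asparaginyl enzyme, at 0.312 (0.0404 to 0.741), and Aarsd1, an alanyl-editing protein, at 0.0819 (0 to 0.461). Over its whole span of 10777 bases Aarsd1 lies within the protein-coding gene Gm27029 on the same strand. Reads there may belong to either gene, so its low value may not be its level. A gene was tested where it reached 1 FPKM in at least 3 libraries, which 11829 genes did. Of the 42 genes 36 passed, 20 cytosolic, 13 mitochondrial and 3 others, and the 6 that did not include Tarsl2, Nars2 and Aarsd1. The spread over mice differed much between genes. Qars, the glutaminyl enzyme of the multi-synthetase complex, was the steadiest of the 36, from 4.62 to 6.21 FPKM, a span of 1.34-fold. Fars2, the mitochondrial phenylalanyl enzyme, spanned 6.73-fold and Nars 4.43-fold. The 11 genes of the complex list, 10 of which are described here in addition to Eef1e1, summed to 34.9 to 54.8 FPKM, and neither scaffold gene, Aimp1 or Aimp2, passed the test in any comparison. Aimp1 averaged 2.48 FPKM (1.18 to 5.54) and Aimp2 1.79 FPKM (0.765 to 3.00) over all mice.

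Pristane given after PBS moved few of these genes, and the largest change was that of Nars in Ifnar1-/- mice at day 6. Each comparison was a limma test on log2(FPKM + 1) over all 11829 genes with Benjamini-Hochberg adjustment, and a gene was called at an adjusted p under 0.05. On this scale the changes of low genes are understated. In Ifnar1+/+ mice 0 of 36 genes were called at day 4, where 2.1% of all genes were called, and 0 of 36 at day 6, where 8.17% were. At an unadjusted p under 0.05 there were 3 at each day. In Ifnar1-/- mice 0 of 36 were called at day 4 (all genes 8.12%, and 4 at an unadjusted p under 0.05). At day 6 there were 7 of 36, 4 higher and 3 lower, or 19.4% beside 11.8% of all genes. The median log2 change of the 36 was -0.04 there, beside -0.02 for all genes. When every library was brought to the same fixed total, 2 rose and 6 fell without hemoglobin genes in the total, and 1 rose and 0 fell with them.

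**Figure D2:**
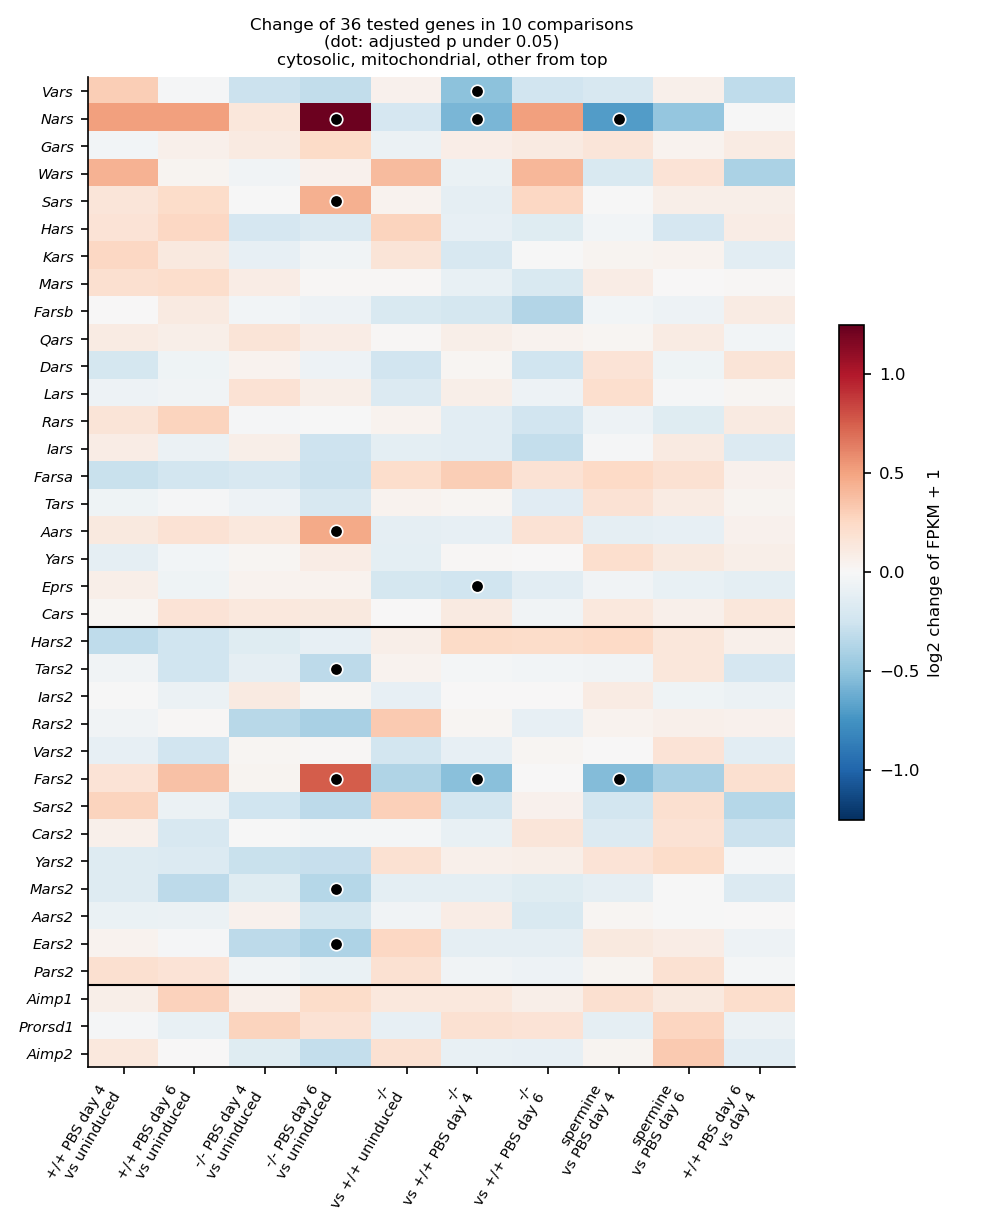
Log2 change of FPKM + 1 for the 36 tested genes (rows, ordered by mean level within the cytosolic, mitochondrial and other classes) in 10 comparisons (columns), red higher and blue lower; dots mark an adjusted p under 0.05. Calls lie in 3 columns, with 7 in Ifnar1-/- PBS day 6 versus uninduced, 4 in Ifnar1-/- versus Ifnar1+/+ at day 4 and 2 in spermine versus PBS at day 4; at a fixed total 0 genes were called lower in the latter 2 columns.

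Among the cytosolic genes, Nars was at 12.3, 13.3 and 13.0 FPKM in the 3 uninduced Ifnar1-/- mice. At day 6 it was at 26.7, 22.5, 39.7, 25.2 and 51.0 FPKM in the 5 mice. All 5 lay above all 3, in a comparison where the groups did not overlap in 20.8% of all genes tested. The change was 1.23 ± 0.25 (log2, SE, adjusted p = 0.000907). It passed the threshold in all 9 alternative settings run and in all 8 fits that left out 1 mouse (1.06 to 1.34). In Ifnar1-/- mice at day 4 Nars was still at 13.5 to 16.1 FPKM, a change of 0.14 that did not pass.
Nars lies on chr18:64499665-64516557 (minus strand, GRCm38) and overlaps no other annotated gene. It was read with at least 243 fragments in each library. When every library was brought to the same fixed total, its change was 0.76 without hemoglobin genes in the total and 0.85 with them. The median of all genes shifted by -0.34 and -0.25 under these scalings, so that relative to all genes Nars rose by 1.09 and 1.10.

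**Figure D3:**
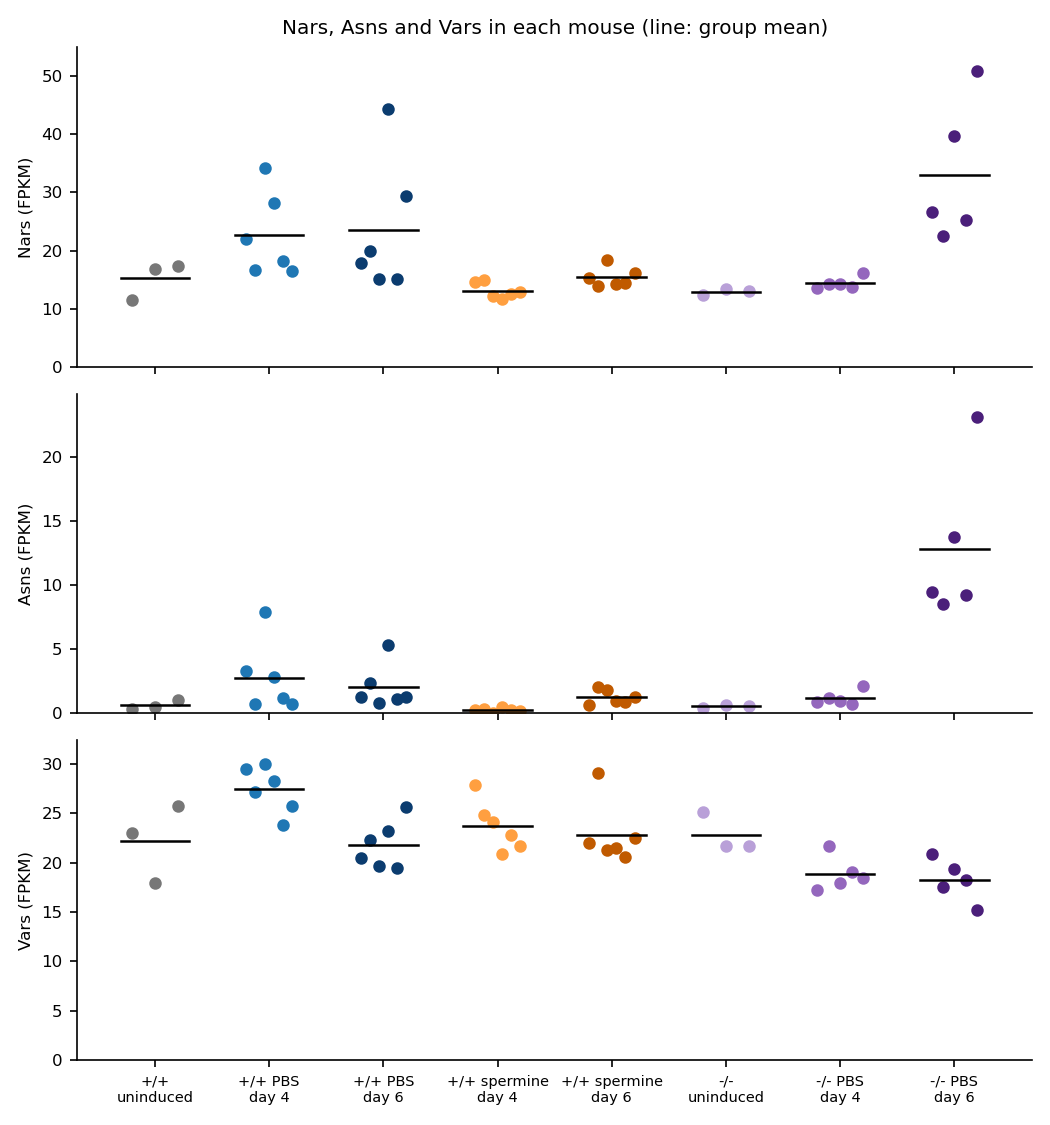
FPKM of Nars, Asns and Vars in each of the 40 mice by group (points), with a line at the group mean. The 5 Ifnar1-/- mice at day 6 lie between 22.5 and 51.0, above the 3 uninduced Ifnar1-/- mice at 12.3 to 13.3, and Asns in the middle panel is highest in the same 5 mice, from 8.55 to 23.1; Vars in the lower panel is lower in Ifnar1-/- than in Ifnar1+/+ mice at day 4 on this scale, a direction that turns at a fixed total.

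Of the remaining cytosolic genes, Sars and Aars also rose in this comparison, and Sars is the only one of them above 5 FPKM. Sars was at 6.62, 6.93 and 6.14 FPKM in the uninduced mice. It was at 9.33, 7.81, 11.2, 8.37 and 10.1 FPKM at day 6, without overlap, a change of 0.45 ± 0.14 (adjusted p = 0.0333). Its call was lost without any 1 of the 3 uninduced mice or without day 6 mouse 3 or 5, with changes between 0.38 and 0.50 over all such fits. At a fixed total its change was 0.01 without hemoglobin genes and 0.10 with them, 0.35 above the median of all genes in both cases.

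Aars and 4 mitochondrial genes were also called below 5 FPKM and are named because their values were seen. Aars was at 1.94, 1.91 and 1.60 FPKM uninduced. It was at 2.82, 2.20, 3.78, 2.22 and 3.87 at day 6, all above the uninduced mice (0.47 ± 0.13, adjusted p = 0.0114). The call was lost without uninduced mouse 3 (adjusted p = 0.0850) and with only the 2 groups fitted (adjusted p = 0.130). It was also lost at a fixed total, where the change was 0.13 without hemoglobin genes (adjusted p = 0.520) and 0.19 with them (adjusted p = 0.543). Aars shares 1326 bases with Exosc6 on the same strand, so reads there may belong to either gene.

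Among the mitochondrial genes, Fars2 rose and 3 genes fell. Fars2 was at 0.744, 0.838 and 0.671 FPKM uninduced. It was at 1.60, 1.41, 1.90, 2.36 and 2.69 at day 6, without overlap (0.76 ± 0.21, adjusted p = 0.0167), and its gene overlaps Lyrm4 and Nrn1 on the opposite strand. The call was lost without any 1 of the uninduced mice or without day 6 mouse 5, with changes from 0.68 to 0.83. It was also lost at a fixed total with hemoglobin genes (0.49, adjusted p = 0.0920), but not without them (0.47, adjusted p = 0.0299). Tars2, the mitochondrial threonyl enzyme, was at 2.60, 2.43 and 2.52 FPKM uninduced and at 2.09, 1.54, 1.61, 2.27 and 1.59 at day 6 (-0.33 ± 0.11, adjusted p = 0.0410). Mars2, the mitochondrial methionyl enzyme, was at 1.21, 1.59 and 1.28 uninduced and at 0.480, 1.09, 1.05, 0.869 and 0.776 at day 6 (-0.36 ± 0.12, adjusted p = 0.0488). For both genes every day 6 mouse lay below every uninduced one. The 2 groups did not overlap in 20.8% of all genes tested. Of the 36 genes, 5 were higher and 7 lower at day 6 without overlap. Ears2, the mitochondrial glutamyl enzyme, was at 0.804, 1.73 and 1.07 uninduced and at 0.702, 0.518, 0.868, 0.484 and 0.734 at day 6, with overlap (-0.39 ± 0.12, adjusted p = 0.0325).

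The calls of these 3 falling genes were each lost in several fits that left out 1 mouse. Tars2 lost its call without any 1 of the uninduced mice or day 6 mouse 2, 3 or 5 (-0.38 to -0.29). Mars2 lost it without any 1 of the uninduced mice or day 6 mouse 1, 4 or 5 (-0.40 to -0.28). Ears2 lost it without uninduced mouse 2 or 3 or day 6 mouse 2 or 4 (-0.52 to -0.22). All 3 calls were also lost at a fixed total with hemoglobin genes, with Tars2 at -0.54 (adjusted p = 0.205), Mars2 at -0.48 (adjusted p = 0.249) and Ears2 at -0.52 (adjusted p = 0.140). Without hemoglobin genes in the fixed total all 3 were still called. There Tars2 was at -0.64 (adjusted p = 0.021), Mars2 at -0.58 (adjusted p = 0.025) and Ears2 at -0.60 (adjusted p = 0.015). The median of all genes moved by -0.25 with hemoglobin genes and by -0.34 without them. Relative to it the 3 genes were at -0.29, -0.23 and -0.27 with them and at -0.30, -0.25 and -0.27 without. With only the 2 groups fitted the adjusted p was 0.110, 0.130 and 0.141 in the same order. Of 8 alternatives other than leaving out a mouse, Tars2 kept its call in 4, Mars2 in 2 and Ears2 in 5.

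By class, 11 of 20 cytosolic and 3 of 13 mitochondrial genes had a change above 0, with class medians of 0.03 and -0.22. The summed FPKM of the cytosolic genes over that of the mitochondrial genes was 4.77 ± 0.51 (SD, n = 3) in uninduced Ifnar1-/- mice and 6.52 ± 0.74 (SD, n = 5) at day 6. The lowest day 6 ratio, 5.83, lay above the highest uninduced one, 5.35. The mean cytosolic sum was 113.4 FPKM uninduced and 133.2 at day 6, while the mitochondrial sum was 23.9 and 20.4. Nars carried the net difference in the cytosolic sum, which without it was 100.5 ± 2.1 (SD, n = 3) and 100.2 ± 6.5 FPKM (SD, n = 5). Within that remainder genes moved both ways. Sars and Aars rose as given above. Vars, which was not called, was at 21.7 to 25.1 FPKM uninduced and 15.2 to 20.9 at day 6. Its values did not overlap, as was so for 20.8% of all genes tested. Without Nars the ratio ran from 3.90 to 4.77 uninduced and from 4.55 to 5.57 at day 6, with overlap. In Ifnar1+/+ mice too the groups given PBS then pristane did not overlap the uninduced one. The ratio was 4.50 to 5.21 uninduced, 5.44 to 6.74 at day 4 and 5.36 to 7.25 at day 6. There the ratios without Nars were 4.03 to 4.44, 4.73 to 5.18 and 4.64 to 5.71, still without overlap with the uninduced mice. The other pristane groups did overlap the uninduced mice of their genotype. With Nars the ratio was 4.93 to 6.02 in Ifnar1-/- mice at day 4. After spermine it was 4.83 to 6.27 at day 4 and 5.14 to 6.46 at day 6.

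Genes of the integrated stress response that work beside the synthetases rose in the same mice. Of 22 tested genes on that list, 11 rose and 0 fell, with a median change of 0.56. Asns, asparagine synthetase, rose by 3.07 ± 0.38 on the log2 scale (adjusted p = 2.94e-07), from a mean of 0.545 to 12.8 FPKM. Atf5, a transcription factor of the same pathway, rose by 2.32 (adjusted p = 0.000572), Sesn2, an inhibitor of the growth kinase mTORC1, by 1.06 (adjusted p = 3.97e-05), and Ppp1r15a, which restores translation, by 1.67 (adjusted p = 0.00189). Of the 13 synthetase genes listed as ATF4-linked, 3 were called higher, namely Nars, Sars and Aars, and 0 lower. By sign, 10 of the 13 had a change above 0 and 3 below. Of 11 other tested genes of tRNA charging 1 fell, Qrsl1, a subunit of the mitochondrial glutaminyl-tRNA amidotransferase (-0.49, adjusted p = 0.00890).

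Red-cell genes moved in the same comparison. Of 10 erythroid markers 8 rose, with a median change of 2.10, and their summed FPKM ran from 10833 to 12643 in uninduced Ifnar1-/- mice and from 10228 to 27973 at day 6. None of these 8 mice is among those with a low mitochondrial share. Markers of other blood cells moved as well. All 10 neutrophil markers rose (median 3.36), with summed levels of 745 to 861 FPKM uninduced and 5239 to 8587 at day 6. Of 6 platelet markers 4 rose, and of 5 monocyte markers 3 rose and 1 fell. Of 6 B cell markers 3 fell, of 6 T cell and of 6 NK cell markers 1 fell each, and of 5 plasma cell and proliferation markers 2 rose and 1 fell. The part of red cells and of these other cells in the changes of the synthetase genes was not tested. Directions of markers here are on the authors' scale. At a fixed total the median of all genes moved by -0.34 without hemoglobin genes and by -0.25 with them. In whole blood, fewer cells of a type and less RNA per cell cannot be told apart.

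In the other pristane comparisons the genes with the smallest p did not pass. In Ifnar1+/+ mice at day 4, Vars was 0.30 ± 0.12 above its uninduced level (adjusted p = 0.203), Nars 0.51 ± 0.24 above (adjusted p = 0.330), and Hars2, the mitochondrial histidyl enzyme, 0.32 ± 0.14 below (log2 change -0.32, adjusted p = 0.297). Nars was at 11.5, 16.9 and 17.4 FPKM in the 3 uninduced mice and at 16.5 to 34.3 at day 4 with a median of 20.1, with overlap. At day 6 its change was again 0.51 (15.1 to 44.4 FPKM, median 18.8, adjusted p = 0.203). Mars2 (-0.33, adjusted p = 0.0800) and Tars2 (-0.25, adjusted p = 0.137) had the smallest p there. These comparisons share their uninduced mice. In Ifnar1-/- mice at day 4 the smallest p were those of Ears2 (-0.33), Rars2, the mitochondrial arginyl enzyme (-0.34), and Vars (-0.26), with adjusted p of 0.103, 0.242 and 0.242, and with hemoglobin genes in a fixed total 8 of 36 were called higher and 0 lower. Between days 6 and 4 in Ifnar1+/+ PBS mice 0 of 36 genes were called, beside 0.473% of all genes, with 4 at an unadjusted p under 0.05. Vars had the smallest p (-0.32 ± 0.10, adjusted p = 0.106), followed by Cars2 (-0.26) and Sars2, the mitochondrial seryl enzyme (-0.35). On the stress response list, Eif2ak2, the interferon-inducible kinase PKR, rose at day 4 in Ifnar1+/+ mice (0.83, adjusted p = 0.0363) and Sesn2 at day 6 (0.68, adjusted p = 0.00786). Mtfmt, which formylates the mitochondrial initiator tRNA, fell at day 6 (-0.41, adjusted p = 0.0418).

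The genotypes differed at day 4 after pristane, where Vars was lower in every Ifnar1-/- mouse on the authors' scale, a direction that turned at a fixed total. Before induction 0 of 36 genes were called between genotypes (all genes 0.406%), and 0 reached an unadjusted p under 0.05. The smallest p were those of Ears2, Eprs and Rars2. At day 4, 4 of 36 were lower and 0 higher in Ifnar1-/- mice, or 11.1% beside 18.5% of all genes. Vars was at 17.2, 21.7, 17.9, 19.0 and 18.4 FPKM in the 5 Ifnar1-/- mice. It was at 23.8 to 29.996 FPKM with a median of 27.7 in the 6 Ifnar1+/+ mice, without overlap (-0.52 ± 0.10, adjusted p = 0.000374). In this comparison 11.3% of all genes tested did not overlap. The call held in all 11 fits that left out 1 mouse (-0.57 to -0.49), and after dropping the libraries of low mitochondrial share (-0.42, adjusted p = 0.00810).

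The direction of this difference depends on the scaling. At a fixed total without hemoglobin genes the change of Vars was 0.15 (adjusted p = 0.416) and with them 0.47 (adjusted p = 0.0443), higher in Ifnar1-/- mice. The median of all genes moved by 0.45 and 0.69 under these scalings, and relative to it Vars fell by 0.30 and 0.22. Under them 21 and 34 of 36 genes were called higher and 0 lower. Vars lies on chr17:35000987-35016322 (plus strand) and overlaps no other annotated gene.

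The 3 other calls at day 4 were closer to the threshold. Nars was at 13.5, 14.2, 14.2, 13.6 and 16.1 FPKM in the Ifnar1-/- mice and at 16.5 to 34.3 in the Ifnar1+/+ mice, again without overlap (-0.57 ± 0.21, adjusted p = 0.0497). Fars2 was at 0.699 to 0.920 FPKM in the Ifnar1-/- mice and at 0.823 to 2.25 in the Ifnar1+/+ mice (-0.52 ± 0.18, adjusted p = 0.0372). Eprs, the enzyme for glutamate and proline, was at 1.42 to 1.76 against 1.73 to 2.51 FPKM (-0.25 ± 0.09, adjusted p = 0.0438). Both genes overlapped between genotypes and are named because their values were seen. Without the 3 day 4 libraries of low mitochondrial share, mice 1, 3 and 4 of the Ifnar1+/+ PBS group, none of the 3 passed: Nars was at -0.24 (adjusted p = 0.506), Fars2 at -0.29 (adjusted p = 0.283) and Eprs at -0.10 (adjusted p = 0.672). At a fixed total without hemoglobin genes the changes of Nars, Eprs and Fars2 were 0.09, 0.20 and -0.14, and with them 0.41, 0.42 and 0.04. All 3 lost the call without any 1 of Ifnar1+/+ mice 1, 3 and 4 and of Ifnar1-/- mice 1, 2, 3 and 4. Fars2 lost it also without Ifnar1+/+ mouse 5, and Nars also without Ifnar1-/- mouse 5. Over these fits Nars ran from -0.65 to -0.45, Fars2 from -0.62 to -0.45 and Eprs from -0.29 to -0.22.

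Red-cell and stress genes moved beside these at day 4. Of the 10 erythroid markers 8 were lower in Ifnar1-/- mice (median -1.80), with sums of 3893 to 10453 FPKM against 12089 to 39700. All 10 neutrophil markers were higher (median 1.97), with sums of 6045 to 7769 FPKM against 925 to 3873. Of 6 B cell and of 6 platelet markers 3 were lower each, of 6 T cell markers 2 were higher and 1 lower, of 6 NK cell markers 2 were higher, of 5 monocyte markers 2 were higher, and of 5 plasma cell and proliferation markers 2 were higher and 1 lower. The part of these cells in the synthetase values was not tested. Directions of markers and stress genes here are on the authors' scale. At a fixed total the median of all genes moved by 0.45 without hemoglobin genes and by 0.69 with them. Of 22 stress response genes 1 was higher and 6 were lower. Eif2ak2 fell by 1.52 (adjusted p = 4.92e-07) and Mthfd2, of mitochondrial one-carbon metabolism, by 2.07 (adjusted p = 0.000473) on the log2 scale, Ppp1r15a was lower (-1.40, adjusted p = 0.00101), and Sesn2 was higher (0.84, adjusted p = 5.33e-05). At day 6, 0 of 36 synthetase genes were called between genotypes, beside 3.2% of all genes, with 6 at an unadjusted p under 0.05. Farsb, a subunit of the phenylalanyl enzyme (-0.37, adjusted p = 0.0666), Iars (-0.30, adjusted p = 0.194) and Nars (0.51, adjusted p = 0.205) had the smallest p. On the stress list 7 genes were higher and 2 lower at day 6, among them Asns (2.24, adjusted p = 1.04e-05), Atf5 (2.71, adjusted p = 1.09e-05), Shmt2, a mitochondrial serine hydroxymethyltransferase (0.87, adjusted p = 0.00251), and Eif2ak2 (-1.15, adjusted p = 0.000174).

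Whether the effect of pristane differed by genotype was tested directly as an interaction. It was called for 0 of 36 genes at day 4, beside 0.254% of all genes, with 3 at an unadjusted p under 0.05. It was called for 0 of 36 at day 6, beside 0.0254% of all genes, with 2 at an unadjusted p under 0.05. For Vars at day 4 it was -0.57 ± 0.17 (adjusted p = 0.159). For Nars at day 6 it was 0.72 ± 0.35 (adjusted p = 0.952), so its rise in Ifnar1-/- mice is not shown to differ from the change in Ifnar1+/+ mice.

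After spermine and pristane Nars was lower at day 4 than after PBS and pristane on the authors' scale, but not at a fixed total. There 2 of 36 genes were lower and 0 higher than after PBS, or 5.56% beside 9.13% of all genes. Nars was at 11.7 to 14.9 FPKM with a median of 12.6 in the 6 spermine mice. It was at 16.5 to 34.3 with a median of 20.1 in the 6 PBS mice, without overlap (-0.70 ± 0.20, adjusted p = 0.0178). In this comparison 5.01% of all genes tested did not overlap. The call was lost without PBS mouse 3 (-0.57, adjusted p = 0.0813) or PBS mouse 4 (-0.63, adjusted p = 0.0625), and without all 3 PBS libraries of low mitochondrial share (-0.37, adjusted p = 0.285). At a fixed total its change was 0.02 without hemoglobin genes and 0.29 with them, against median shifts of all genes of 0.51 and 0.72, and relative to these it fell by 0.49 and 0.42. Under those scalings 30 and 33 of 36 genes were called higher and 0 lower. Fars2, named because its value was seen, was also lower (-0.54 ± 0.17, adjusted p = 0.0362), with -0.31 (adjusted p = 0.281) without the libraries of low mitochondrial share. It lost its call in 8 of 12 fits that left out 1 mouse, without PBS mouse 1, 3, 4 or 5 or spermine mouse 3, 4, 5 or 6 (-0.64 to -0.47).

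Of the 10 erythroid markers 8 were lower after spermine at day 4 (median -2.64), with sums of 2598 to 7107 FPKM. Of the 10 neutrophil markers 6 were higher and 2 lower (median 1.00), with sums of 2494 to 5381 FPKM against 925 to 3873. Of the other lists 1 B cell marker and 2 plasma cell and proliferation markers were lower, 1 NK cell marker was higher, and 0 T cell, monocyte or platelet markers were called. The part of these cells was not tested. Directions of markers and stress genes here are on the authors' scale. At a fixed total the median of all genes moved by 0.51 without hemoglobin genes and by 0.72 with them. Of 22 stress response genes 1 was higher and 8 lower, among them Mthfd2, which fell by 3.24 (adjusted p = 1.59e-06), Ppp1r15a by 2.15 (adjusted p = 3.46e-06), Slc7a5, a transporter of large neutral amino acids, by 2.37 (adjusted p = 1.28e-05), and Slc3a2, its partner chain, by 1.27 (adjusted p = 4.26e-05). At day 6, 0 of 36 synthetase genes were called between spermine and PBS, beside 0.0423% of all genes, with 3 at an unadjusted p under 0.05. Nars was 0.48 lower (-0.48 ± 0.20, adjusted p = 0.213), Fars2 was at -0.40 (adjusted p = 0.220) and Aimp2 at 0.33 (adjusted p = 0.302). With hemoglobin genes in a fixed total 22 of 36 were called higher there, at a median shift of all genes of 0.43. The interaction of spermine and day was called for 0 of 36 genes, beside 0.0169% of all genes, with 2 at an unadjusted p under 0.05, Cars2 (0.35) and Sars2 (0.43). The PBS mice of these comparisons also serve in the genotype comparisons, so the values of Nars in them are not independent.

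Nars and red-cell genes were high in the same mice in some groups and not in others. Among the 6 Ifnar1+/+ PBS mice at day 4, mice 1, 3 and 4 had Nars at 22.1, 34.3 and 28.3 FPKM, with erythroid sums of 39700, 32410 and 31740. Mice 1, 3 and 4 are also the 3 libraries of low mitochondrial share in that group, at 0.923%, 0.880% and 0.909%, and the part of that share was not tested. Mice 2, 5 and 6 had Nars at 16.7, 18.2 and 16.5 FPKM, with sums of 13950, 14890 and 12090. In that group the same mice were high or low in both measures, although the highest in one was not the highest in the other. At day 6, Ifnar1+/+ PBS mouse 4 had Nars at 44.4 FPKM with a sum of 37750 and is also a library of low mitochondrial share, and Ifnar1-/- mouse 5 had 51.0 FPKM with a sum of 27970. Asns was at 5.31 FPKM in the former and at 23.1 in the latter. In other groups the order differed. Among Ifnar1-/- mice at day 4, mouse 1 had the highest sum, 10453, and the lowest Nars, 13.5 FPKM, while mouse 5 had the highest Nars, 16.1 FPKM, at a sum of 5852. After spermine at day 4, mouse 2 had the lowest sum, 2598, and the highest Nars, 14.9 FPKM, and mouse 3 had the highest sum, 7107, with Nars at 12.1 FPKM.

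**Figure D4:**
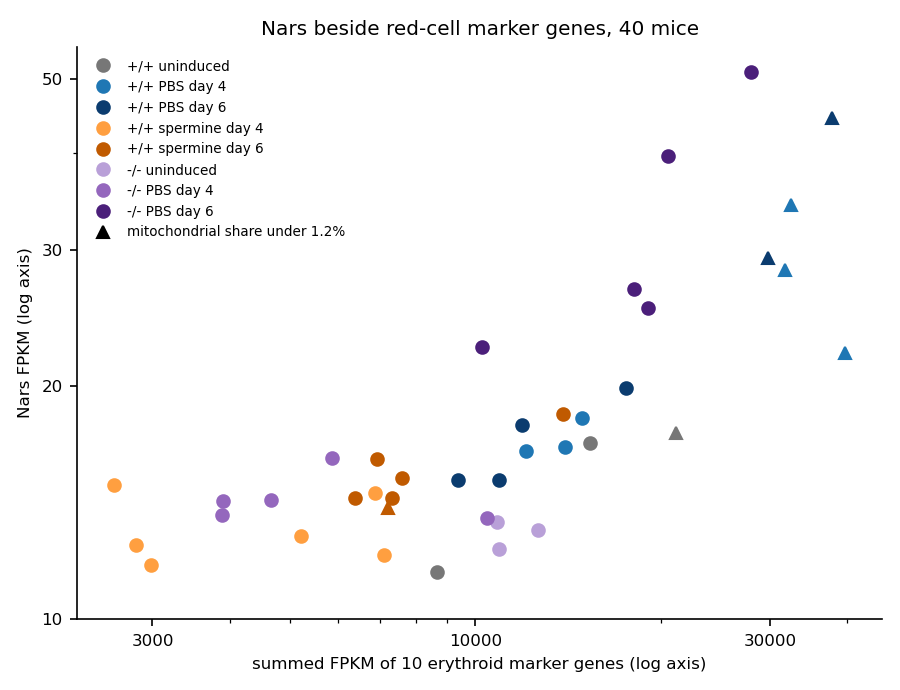
FPKM of Nars against the summed FPKM of 10 erythroid markers in each of the 40 mice, on log axes, coloured by group, with triangles for the 7 libraries of low mitochondrial share. The highest Nars values lie at high sums, the mice of low sums show no clear order, and the Ifnar1-/- day 6 mice lie above the Ifnar1+/+ mice of nearest sums.

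The genes closest to Nars in pattern were found from values centred within each group over 40 mice, as a description. Of 11828 other genes the nearest were Ank1, the ankyrin of the red-cell membrane skeleton (r = 0.92), Ppp2r5b, Sox6, a transcription factor of red-cell maturation, Add2, an adducin of the same skeleton, and Sqstm1, an autophagy receptor, all at 0.92. The 10 erythroid markers lay between 0.65 and 0.92 with a median of 0.84, and Asns was at 0.80. All genes of a library share its depth and hemoglobin content in such values. Over the 33 mice left after dropping the 7 low-share libraries Ank1 was at 0.87.

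Wars followed another pattern, with single mice far above the rest. It passed in 0 of the 13 comparisons. Of its 40 values, 37 lay between 5.18 and 9.52 FPKM. Ifnar1+/+ PBS day 4 mouse 2 was at 15.1 FPKM, with the other 5 mice of its group at 6.11 to 9.05. Ifnar1-/- day 4 mouse 1 was at 17.9 with the other 4 at 5.93 to 6.32, and Ifnar1-/- day 6 mouse 3 was at 17.2 with the other 4 at 5.39 to 8.39. These 3 mice come from 3 groups of both genotypes. Wars lies on chr12:108860030-108894174 (minus strand) and shares 544 bases with Wdr25 on the opposite strand.

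**Figure D5:**
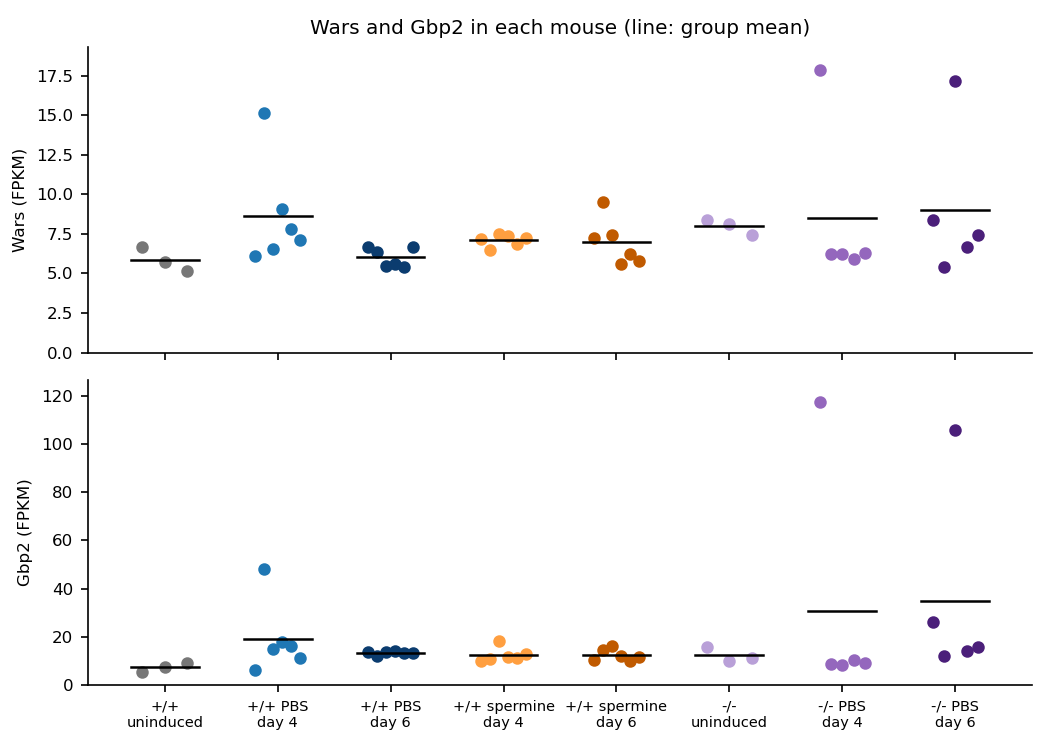
FPKM of Wars (top) and of Gbp2 (bottom) in each of the 40 mice by group, with a line at the group mean. In 3 mice Wars lies at 15.1 to 17.9, and the same mice have Gbp2 at 48.3, 117 and 106, far above their groups.

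The genes nearest to Wars in pattern, by the same measure over 40 mice, included Irgm1 (r = 0.92) and Tap1 (0.92). These are an interferon-induced GTPase and a peptide transporter of antigen presentation. Also among the nearest were Gbp2 (0.91), a guanylate-binding GTPase, and Tgtp1 (0.90), an interferon-induced GTPase like Irgm1. Gbp2 was at 48.3, 117 and 106 FPKM in the same 3 mice, beside 6.40 to 18.1, 8.44 to 10.6 and 12.1 to 26.1 in the other mice of their groups. Asns, by contrast, stood at -0.13 to Wars. Isg15, an interferon-stimulated ubiquitin-like gene, was at 464, 31.0 and 95.2 FPKM in these mice, against 306 to 927, 4.25 to 11.2 and 21.4 to 93.4 in the rest of their groups. Isg15, named because its values were seen, lay within its group in the first of them and was the highest of its group in the other two.

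The changes of Wars between groups stayed within that spread. It was 0.43 ± 0.25 above its uninduced level in Ifnar1+/+ mice at day 4 (adjusted p = 0.452) and 0.05 ± 0.26 above it in Ifnar1-/- mice at day 6 (adjusted p = 0.930). Leaving out 1 mouse at a time, the latter ran from -0.19 to 0.19. Before induction Wars was at 6.70, 5.72 and 5.18 FPKM in Ifnar1+/+ mice and at 8.41, 8.12 and 7.46 in Ifnar1-/- mice. These values did not overlap, as was so for 17.6% of all genes tested. The difference of 0.39 ± 0.29 did not pass (adjusted p = 0.647). With hemoglobin genes in a fixed total Wars was higher in Ifnar1-/- mice at day 4 (0.81, adjusted p = 0.00580) and after spermine at day 4 (0.72, adjusted p = 0.00781), beside median shifts of all genes of 0.69 and 0.72.

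The scaffold genes of the multi-synthetase complex kept low levels in all groups. Aimp1 had group means of 1.90 to 2.98 FPKM, and its largest change was 0.29 ± 0.18, at day 6 in Ifnar1+/+ mice (adjusted p = 0.339). Aimp2 had group means of 1.41 to 2.28 FPKM, and its largest change was that between spermine and PBS at day 6 given above. Aimp2 shares 1548 bases with Eif2ak1, the heme-regulated kinase, on the opposite strand. As the sources do not state a stranded count, reads in that shared stretch may belong to either gene. Of the 11 genes of the complex list 0 were called in 12 of the 13 comparisons, and 1, Eprs, in the comparison of genotypes at day 4.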

How the data were processed

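The authors deposited FPKM values for 54532 genes in 40 libraries; the submitters' processing notes name CASAVA 1.8, fastp, HISAT2 2.0.5, featureCounts 1.5.0-p3, DESeq2 1.20.0 and GRCm38/mm10, without saying which tool made which value. Within a library 100% of values times gene length were whole multiples of 1 step (tolerance 0.001 read), which gave fragments per library. The FPKM scale follows size factors and not a fixed total. Deposited values were tested with limma 3.58.1 (trend) in R 4.3.3 on log2(FPKM + 1), in 1 fit of 8 groups, with Benjamini-Hochberg adjustment over 11829 genes. Data were simulated for Ifnar1+/+ PBS day 4 versus uninduced over 11829 genes. Of genes changed by 1 on the log2 scale 81% were recovered, of those changed by 2 98%, and 4.79% of calls were false. The simulation drew independent noise for each gene and no shift shared by a library. These rates therefore do not describe smaller changes or calls that depend on the scaling. Tables were handled with python 3.11.15, pandas 2.3.3 and numpy 2.4.6.

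Samples were grouped by the labels, which name separate mice. Named genes are called members at 5 FPKM or more in a group, the 3 smallest p where none was called, Wars, Aimp1, Aimp2, the 3 highest and 3 lowest means, and up to 4 called genes per further list. Members and lists were chosen with earlier results of these data known. Marker and stress lists hold genes from general knowledge. Alternatives were other scalings, a pseudocount of 0.1, other filters, the groups compared alone, voom on recovered reads, a replicate block, and fits without libraries. Values of some genes are not reported here.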

Additional observations from a re-analysis of the deposited data

Results flagged for a closer look

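In 96 groups of 5 or 6 mice, for 16 of the 42 genes, 15 values (15.6% of groups) stood apart from the rest of their group by the gap to the nearest mouse. Chance flags about 1 in 20 groups, and values of 1 mouse are not independent of each other.

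Of the 15 values 7 belong to Ifnar1+/+ spermine day 6 mouse 2, which has a mitochondrial share of 1.12% and the highest summed neutrophil markers of the 40 mice, 10610 FPKM. In it Sars was at 13.61 FPKM (next mouse of the group 7.81), Gars at 11.51 (next 7.75), Vars at 29.06 (next 22.5), Aars at 3.39 (next 2.25), Aimp1 at 5.541 (next 2.99) and Fars2 at 2.688 (next 1.44). Mars2 was the lowest of its group there, at 0.533 (next 1.03). The part of neutrophils or of the low mitochondrial share in these values was not tested.

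Wars was high in 3 mice, at 15.14 FPKM in Ifnar1+/+ PBS day 4 mouse 2, 17.89 in Ifnar1-/- PBS day 4 mouse 1 and 17.16 in Ifnar1-/- PBS day 6 mouse 3. The next mice of their groups were at 9.05, 6.32 and 8.39.

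The other 5 values were single. Aars was at 3.009 FPKM in Ifnar1+/+ PBS day 6 mouse 4 (next 2.48), and Sars at 9.678 in mouse 6 of that group (next 7.79). Aimp1 was at 4.192 in spermine day 4 mouse 2 (next 2.44). Nars was at 16.14 in Ifnar1-/- PBS day 4 mouse 5 (next 14.2). Tarsl2 was at 0.7299 in Ifnar1+/+ PBS day 4 mouse 4 (next 0.398).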

How the results depend on the processing

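The rise of Nars in Ifnar1-/- mice at day 6 passed under all 9 alternatives; most other calls depended on the scaling or on single mice, and the causes were not tested. Counts of called genes under each alternative follow, where they moved by over 1.5 times. At a fixed total with hemoglobin genes they were 8 for Ifnar1-/- day 4 versus uninduced, 1 for Ifnar1-/- day 6 versus uninduced, 34 for genotype at day 4, 33 for spermine at day 4, 22 for spermine at day 6 and 2 for the genotype interaction at day 4. At a fixed total without them they were 21 for genotype at day 4, 30 for spermine at day 4 and 1 for spermine at day 6. With no filter they were 4 for Ifnar1-/- day 6, 1 for genotype at day 4 and 1 for spermine at day 4, and with a filter at 5 FPKM, which tests fewer genes, 2, 2 and 1, with 1 for genotype at day 6. With the groups compared alone they were 1 for Ifnar1-/- day 4 and 2 for day 6, and with voom on recovered reads 1 for Ifnar1-/- day 4. Without the libraries of low mitochondrial share they were 1 for genotype at day 4, 2 for genotype at day 6 and 0 for spermine at day 4.

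Leaving out 1 mouse at a time gave 1 to 6 calls for Ifnar1-/- day 6, 1 to 4 for genotype at day 4, 0 to 2 for spermine at day 4, 0 to 1 for Ifnar1+/+ day 6, Ifnar1-/- day 4, genotype at day 6 and day 6 versus day 4, and 0 in the other comparisons. With a replicate block the counts were 4 for Ifnar1-/- day 6 and 1 for spermine at day 4, and Tars2, Mars2 and Ears2 lost their calls for Ifnar1-/- day 6 (adjusted p = 0.0659, 0.0597 and 0.0531). Same-numbered mice deviated together with correlations from -0.36 to 0.38, and in none of the 10 comparisons of 2 groups was every pair above 0.1, so the numbers were not taken to pair the mice.

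Directions turned at a fixed total without and with hemoglobin genes as follows. For genotype at day 4 Vars was at 0.15 and 0.47, Nars at 0.090 and 0.41, Eprs at 0.20 and 0.42, and Fars2 at 0.041 with them. For spermine at day 4 Nars was at 0.018 and 0.29, and Fars2 at 0.015 with them. Wars, which was not called, was at -0.18 and -0.17 for Ifnar1+/+ day 6, 0.11 and 0.55 for Ifnar1-/- day 4, -0.38 and -0.28 for Ifnar1-/- day 6, 0.52 and 0.81 for genotype at day 4, and 0.47 and 0.72 for spermine at day 4. It was at -0.047 for Ifnar1+/+ day 6 without the libraries of low mitochondrial share, and at 0.045 for Ifnar1-/- day 4 with a replicate block. Leaving out 1 mouse, Wars ran from -0.036 to 0.12 for Ifnar1+/+ day 6, -0.33 to 0.037 for Ifnar1-/- day 4, -0.19 to 0.19 for Ifnar1-/- day 6 and -0.37 to 0.075 for genotype at day 4.

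Groups of 3 uninduced mice limit the comparisons with them. Low genes rest on few fragments (a median of 2 for Aarsd1), and 24 of the 42 genes overlap another annotated gene, 15 of them a protein-coding one.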
